A study of Homo sapiens with 2 samples.

Results

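The genes of the hemidesmosome and of laminin-332 were taken as a list of 9, LAMA3, LAMB3, ITGA3, ITGA6, ITGB4, COL17A1, DST, PLEC and CD151, picked by name out of 19862 protein-coding gene records with earlier results of these data known, and were examined for peaks of DNA recovered with a TCF4 antibody. Hemidesmosomes anchor basal epithelial cells to the basement membrane. The integrin α6β4, encoded by ITGA6 and ITGB4, binds laminin-332 outside the cell, and plectin (PLEC) and the epithelial form of dystonin (DST) tie it to keratin filaments inside. Collagen XVII (COL17A1) is a transmembrane partner, and the tetraspanin CD151 associates with α6β4 and with α3β1, the other laminin receptor, whose alpha chain is encoded by ITGA3. LAMA3 and LAMB3 encode the alpha 3 and beta 3 chains of laminin-332. In stratified epithelium these genes are known as basal cell genes, and many of them are genes of the inherited blistering disease epidermolysis bullosa.

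The cells were CAL-27, an established human tongue squamous carcinoma line, grown as spheres, a culture that is commonly used to enrich stem-like tumour cells. The series has 1 library made with an antibody to TCF4 and 1 made with IgG, both from this line, with no other treatment named in the labels. For the TCF4 library 26642 peaks were listed on build hg38. Signal of the IgG library was not used here. The name TCF4 covers an E protein, a binder of E-box words, and TCF7L2, a Wnt factor, and the labels leave unsaid which of them the antibody recognises. With 1 library no value has a replicate check, no test compares the antibodies, and peaks that do not depend on the antibody were not separated from binding.

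A summit, the highest point of a peak, was counted as inside a gene record, at an end of it (within 1 kb of either end) or in the neighbourhood (outside, up to 50 kb away). Each peak has the authors' fold enrichment, a ratio over the caller's local background. The fold and the p together give the whole number of fragments at the summit and that background, which is the number of fragments expected there. Intervals of fragment counts are exact Poisson 95% intervals and cover counting error only.

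Peaks at the starts of the members can be set beside their DNA. RefSeq promoter sequences (GRCh38.p14, 250 bases before to 50 after a start) were held for 5 of the 9 genes, with 10 starts in all, and the promoters of 6 of those starts, at LAMA3, LAMB3, ITGA6 and DST, were overlapped by a peak, against 23.9% of all promoters in the table. The same 6 had a summit within 1 kb of the start, against 31.4%. Counted by gene, 4 of the 5 had a summit within 1 kb of an annotated start, against 44.5% of 15841 protein-coding genes of the table, and LAMB3 alone of the 5 had one within 1 kb of its finish, against 4.8%. The sequences below are the promoters overlapped most by a peak in each of these 4 genes, and the promoter of COL17A1, which had none. They are printed 5′ to 3′. Capitals mark every E-box word CANNTG, the form bound by basic helix-loop-helix factors, every AP-1 word TGANTCA and every TCF/LEF word CTTTGAA or CTTTGAT, searched on both strands.
LAMA3, chr18:23872770-23873069, plus strand: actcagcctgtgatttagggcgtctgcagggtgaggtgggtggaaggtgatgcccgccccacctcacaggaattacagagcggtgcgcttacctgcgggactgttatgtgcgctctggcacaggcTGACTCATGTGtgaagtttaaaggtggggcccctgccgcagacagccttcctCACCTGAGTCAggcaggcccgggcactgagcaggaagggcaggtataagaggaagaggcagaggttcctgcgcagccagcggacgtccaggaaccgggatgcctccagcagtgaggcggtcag
LAMB3, chr1:209652376-209652675, minus strand: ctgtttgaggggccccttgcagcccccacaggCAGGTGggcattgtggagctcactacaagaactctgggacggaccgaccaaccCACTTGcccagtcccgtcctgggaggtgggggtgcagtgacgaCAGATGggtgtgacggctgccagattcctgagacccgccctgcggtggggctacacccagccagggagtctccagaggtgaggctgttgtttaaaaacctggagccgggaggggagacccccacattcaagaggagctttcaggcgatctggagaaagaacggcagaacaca
ITGA6, chr2:172427336-172427635, plus strand: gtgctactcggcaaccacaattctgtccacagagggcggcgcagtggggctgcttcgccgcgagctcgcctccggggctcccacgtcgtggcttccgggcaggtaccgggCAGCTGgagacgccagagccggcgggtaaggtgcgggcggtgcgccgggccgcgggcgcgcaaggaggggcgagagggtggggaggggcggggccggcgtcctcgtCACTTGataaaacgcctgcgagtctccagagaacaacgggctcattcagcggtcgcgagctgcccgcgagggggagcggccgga
DST, chr6:56954781-56955080, minus strand: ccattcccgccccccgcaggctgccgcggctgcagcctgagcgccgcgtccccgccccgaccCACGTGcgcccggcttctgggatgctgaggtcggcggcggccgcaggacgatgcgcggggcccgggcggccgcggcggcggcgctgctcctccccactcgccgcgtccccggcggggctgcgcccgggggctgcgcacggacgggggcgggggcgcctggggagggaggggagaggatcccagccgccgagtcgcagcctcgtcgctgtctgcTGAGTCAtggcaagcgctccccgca
COL17A1, chr10:104085831-104086130, minus strand: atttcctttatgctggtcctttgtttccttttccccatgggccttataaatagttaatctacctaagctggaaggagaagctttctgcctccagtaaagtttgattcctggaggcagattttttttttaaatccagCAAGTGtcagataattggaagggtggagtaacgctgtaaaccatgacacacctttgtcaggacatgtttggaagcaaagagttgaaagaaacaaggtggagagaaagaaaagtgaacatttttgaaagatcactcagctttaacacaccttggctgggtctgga

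None of the 10 member promoters held a TCF/LEF word, which 6.86% of 35115 promoters in the table held. This says only that these letters were not in these windows. An E-box word was present in 10 of 10, against 68.7% of all promoters and 57.2% of the promoters overlapped by a peak. With 150 bases before the start an E-box word was present in 7 of 10, and the share of all promoters was not computed for that length. The E-box form CAGGTG was present in 3 of 10 (20.6% of all) and CAGCTG in 3 of 10 (17.9%). The AP-1 word was found in 3 of 10 (7.71%), at LAMA3, at the downstream start of LAMB3 and at DST. The SP1 word GGGCGG was found in 7 of 10 (45.0%), including all 6 with a peak, and 79.0% of all promoters with a peak held it. The TEAD word GGAATG was found in 1 of 10 (14.0%), at DST. Some of the 10 windows overlap, since 2 starts of LAMB3 lie 96 bp apart and the 2 starts of ITGA6 lie 250 bp apart, so they are not independent counts.

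**Figure D1:**
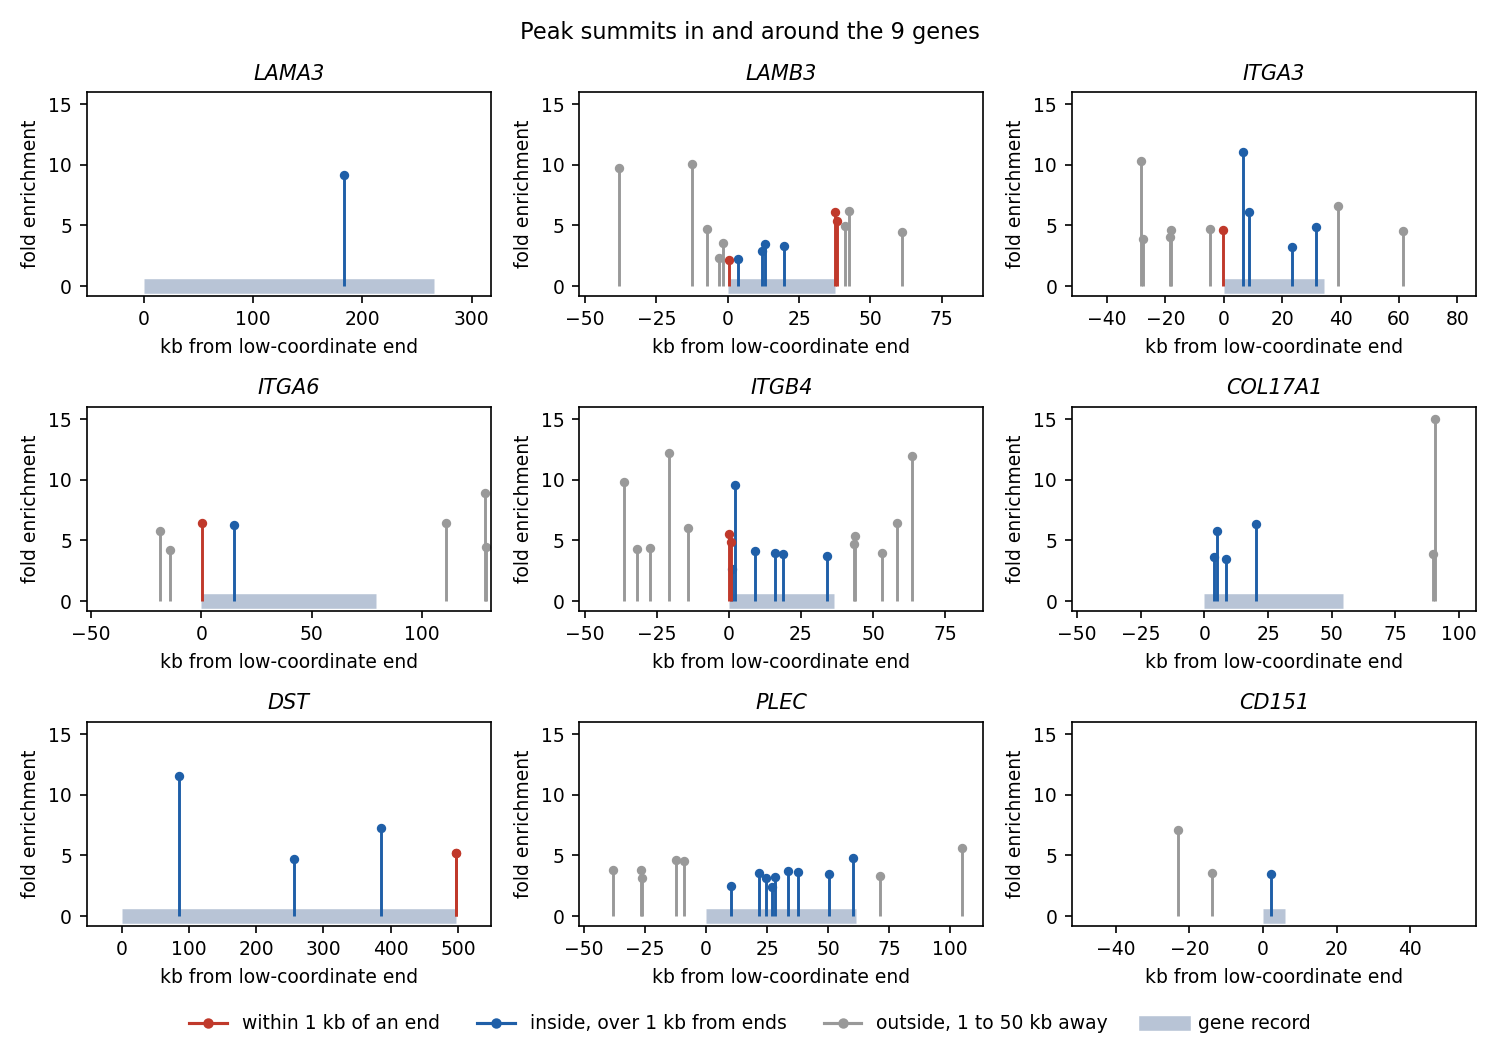
Peak summits of the TCF4 library in and around each gene, by distance in kb from the low-coordinate end of the record (horizontal axis, scale differs between panels) and the authors' fold enrichment (vertical axis); the bar is the gene record. LAMA3 has a single summit in its whole panel, PLEC holds 9 inside the record and none at its ends, and LAMB3 and ITGB4 are surrounded by summits on both sides.

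All 9 genes held at least 1 summit inside the record, against 39.0% of all protein-coding records, and for 5 of 9 a summit lay at an end, against 41.5%. Shares over all records are not matched for length. Among records within 20% of each gene's length, 22.9% (CD151) to 65.9% (DST) held a summit inside. That share was 62.3% for LAMA3, 50.9% for ITGA6, 47.7% for PLEC and 47.1% for COL17A1. It was 43.1% for LAMB3, 42.7% for ITGB4 and 42.3% for ITGA3. A summit inside or within 50 kb was found for 9 of 9, against 77.6%. There were 42 summits inside or at an end, of which 33 were inside and over 1 kb from both ends, 3 inside at an end and 6 just outside at an end. The median over the members was 4 summits inside, and the median over all protein-coding records was 0. Over records of like length it was 1 for LAMA3, ITGA6 and DST and 0 for the other members. Within this count the genes split widely, from 1 summit in LAMA3 and CD151 to 9 in PLEC. Near the limit of the window, the ITGB4 summit 777 bp from an end and the LAMB3 summit 735 bp from one were the outermost counted, and the nearest left out were at 1212 bp in ITGB4 and 1530 bp in PLEC.

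The laminin chains differed widely in their peaks. LAMA3 (gene 3909, chromosome 18 from 23689453 to 23955066) is 265.6 kb long and had 1 summit inside, none at its ends and none in the 50 kb on either side. That peak ran from 23872739 to 23873055 at a fold of 9.17 on 16 fragments (9.15 to 26.0) and a −log10 q of 12.1. Its fold was at the 92.0 percentile of all peaks. It lay 82146 bp from the nearer end of the record, but only 100 bp before the internal LAMA3 start shown above, and covered 286 of the 300 promoter bases. Starts of other LAMA3 transcripts were not used here.

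The LAMA3 promoter held 2 AP-1 words, and each shared 2 bases with an E-box word. TGACTCATGTG ran from 125 to 115 bases before the start, and CACCTGAGTCA from 73 to 63 bases before it, on either side of the summit at 100. An AP-1 word that overlaps an E-box word was found in 1.16% of all promoters, and at least 2 such words in 6 of 35115. This comparison was chosen after the LAMA3 sequence had been seen, and a match is a description of the letters, not a binding site.

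LAMB3 (gene 3914, chromosome 1 from 209614870 to 209652425), only 37.6 kb long, had 5 summits inside and 3 at its ends. The strongest ran from 209652377 to 209652636, 118 bp before the annotated start and over 260 of the 300 bases of the promoter shown above, with a fold of 6.10 on 55 fragments (41.4 to 71.6) and a −log10 q of 22.7. A second at that end, 735 bp outside, had a fold of 5.35 on 48 fragments. Further summits upstream, 3627 and 4852 bp outside the record, had folds of 4.93 and 6.23 on 41 and 48 fragments. These 4 peaks upstream of LAMB3 stood at similar depth, and their intervals overlap.

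Inside LAMB3 the peaks were weaker in fold but still deep. The summits 12154 and 12949 bp from the low-coordinate end had folds of 2.90 and 3.44 on 43 and 49 fragments. The summit 463 bp inside the low-coordinate end, which is the finish of the gene, had a fold of 2.18 on 33 fragments, a value at the 0.0263 percentile of all folds and the 94.7 percentile of all fragment counts. The local background there was 14.6 fragments, at the 99.7 percentile. At these 3 summits in the body and at the finish of LAMB3 high counts stood beside low folds, and at the start the 2 peaks named above had folds over the median of 5.13 of all peaks. Over the 8579 peaks within 1 kb of a protein-coding end the median was 5.81, which lies between those 2 folds.

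The integrin genes carried peaks near a record end in each case. ITGB4 (gene 3691, chromosome 17 from 75721459 to 75757818, 36.4 kb), the beta chain found in hemidesmosomes, had 7 summits inside, and 4 of its summits lay in the first 2 kb around its low-coordinate end. The deepest peak of all 9 genes was among them, from 75723162 to 75723634, its fold being 9.56 on 69 fragments (53.7 to 87.3) and a −log10 q of 41.6, 1926 bp inside the record. The summit 50 bp outside the same end had a fold of 5.51 on 38 fragments, and those 777 and 1212 bp inside had 4.90 on 34 and 2.62 on 18. The count interval of the deepest peak lay above those of the other 3. The remaining 4 summits in ITGB4 had folds of 3.69 to 4.09 on 13 to 22 fragments. The last of these also lay inside the record of the neighbouring gene GALK1, which overlaps ITGB4.

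ITGA6 (gene 3655, chromosome 2 from 172427336 to 172506459, 79.1 kb), the alpha chain that pairs with ITGB4, was far sparser, with 2 summits. The peak from 172427326 to 172427611 had its summit 146 bp inside the low-coordinate end, between the 2 starts in the table, and a fold of 6.44 on 11 fragments (5.49 to 19.7). The other, 14889 bp inside, had a fold of 6.31, also on 11 fragments. Their folds exceed all 7 at LAMB3 on fewer fragments, and the local background was 0.864 and 0.903 fragments.

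ITGA3 (gene 3675, chromosome 17 from 50056110 to 50090481, 34.4 kb), the alpha chain of the receptor α3β1, had 4 summits inside and 1 at 113 bp outside its low-coordinate end. The end summit was modest, with a fold of 4.62 on 17 fragments (9.90 to 27.2). The strongest was internal, from 50062445 to 50062792, 6581 bp from that end, at a fold of 11.1 on 46 fragments (33.7 to 61.4) and a −log10 q of 31.9. Its fold was at the 96.3 percentile of all peaks. A peak 8746 bp from the end had 6.07 on 23 fragments, and the remaining pair, toward the far end, had 3.25 on 8 and 4.87 on 12.

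CD151 (gene 977, chromosome 11 from 832952 to 838831), the tetraspanin partner of both laminin receptors, is the shortest record at 5.88 kb. It had 1 summit, 2029 bp inside its low-coordinate end, and none at its ends. The fold was 3.43 on 22 fragments (13.8 to 33.3). That fold was at the 2.71 percentile of all peaks and its −log10 q was 4.09.

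COL17A1 (gene 1308, chromosome 10 from 104031286 to 104085880, 54.6 kb) had no summit at either end and 4 inside. All lay toward the finish of the record, and the one nearest the start was 34230 bp downstream of it. The strongest peaks ran from 104051581 to 104051685, at a fold of 6.32 on 19 fragments (11.4 to 29.7), and from 104036075 to 104036242, with 5.80 on 24 (15.4 to 35.7). The other 2 had folds of 3.62 and 3.46 on 14 and 13 fragments. The GC content of its promoter was 40.7%, against a median of 58.7% over all promoters and 67.7% over promoters overlapped by a peak.

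The cytoplasmic linkers also differed from each other. DST (gene 667, chromosome 6 from 56457996 to 56954830), a 496.8 kb record, held 3 summits inside and had 2 outside its start, 94 and 527 bp away, with folds of 5.21 and 5.18 on 8 fragments each (3.45 to 15.8). The first lies between DST and BEND6, 183 bp from the end of BEND6, and the second lies 250 bp inside BEND6, so neither can be assigned to DST alone. Both have a −log10 q under 5. The strongest DST peak was internal, from 56542707 to 56543038, at a fold of 11.5 on 16 fragments (9.15 to 26.0) over the lowest background that the caller used, 0.475 fragments. A further peak, with a fold of 7.30 on 12 fragments, had its summit inside the antisense record DST-AS1. The table lists 2 further starts inside DST. The nearest summits to them lay 7684 bp and 70644 bp away, and no peak overlapped either. Which of the DST starts serves the epithelial form was not examined, so the peak at the outermost start cannot be taken as one at that form's start.

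PLEC (gene 5339, chromosome 8 from 143915153 to 143976745, 61.6 kb) held the most summits, 9 inside and none at an end. The one nearest an end was 1530 bp inside the high-coordinate end. Its fold, 4.77 on 30 fragments (20.2 to 42.8), was the highest in the gene. The peaks from 143936525 to 143936884 and from 143939575 to 143940449 rested on 61 fragments each (46.7 to 78.4), with folds of 3.57 and 3.16. All 9 folds lay between 2.41 and 4.77, below the median of 5.13 over all peaks, while 8 of 9 peaks had at least 20 fragments.

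The number of summits was set against gene length. Inside the 9 records, 1072 kb in all, there were 3.36 summits per 100 kb (exact Poisson interval 2.35 to 4.65), against 1.04 over all 16259 protein-coding records at least as long as CD151. That interval covers counting error only, as if the 9 records shared 1 rate, and does not measure the spread between genes. The rates ran from 0.376 per 100 kb in LAMA3 to 19.3 in ITGB4. Among records within 20% of the same length, 3 of 1857 (0.162%) held as many summits as PLEC or more, and 5 of 2042 (0.245%) as many as ITGB4. The shares were 1.69% for LAMB3, 2.26% for ITGA3 and 4.22% for COL17A1. They were 20.7% for ITGA6, 22.9% for CD151, 28.9% for DST and 62.3% for LAMA3. In 8 of the 9 genes the number exceeded the median of records of like length, LAMA3 being the exception with 1 against a median of 1. These are ranks within 1 library, not tests.

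**Figure D2:**
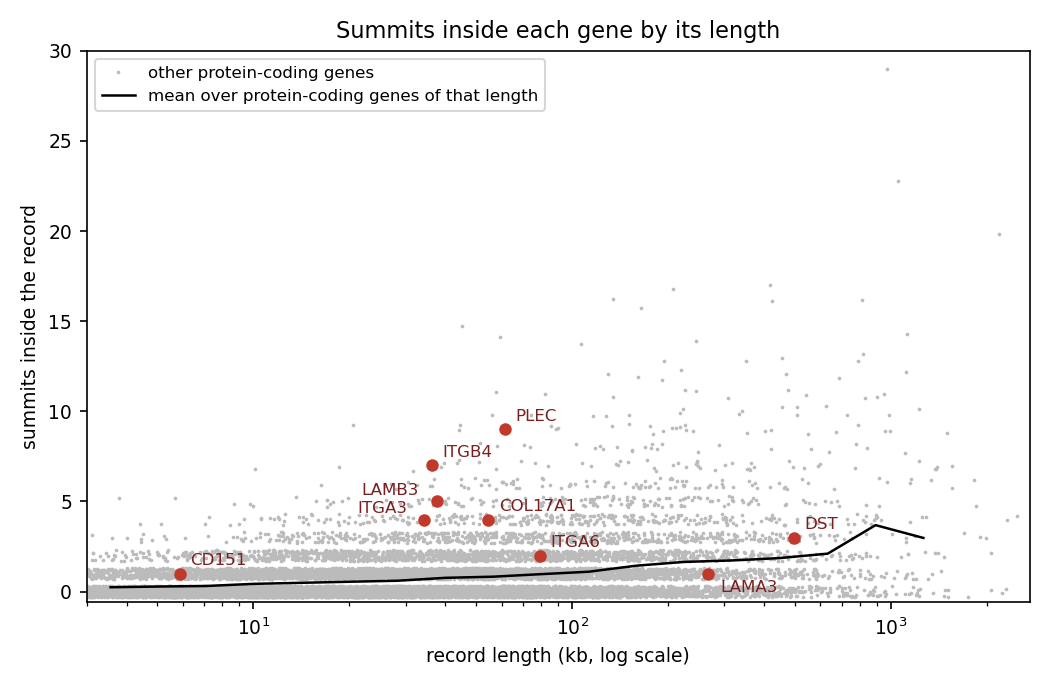
Number of summits inside each protein-coding gene record (vertical axis; grey points are spread slightly up and down) against record length in kb on a log scale, with the 9 genes in red and the mean for records of like length as a line. PLEC with 9, ITGB4 with 7 and LAMB3 with 5 stand high for their length, and LAMA3 with 1 does not.

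The peaks of the 9 genes were then compared with all peaks in fragment density. The 42 member peaks had a median of 22.5 fragments at the summit against 10 over all peaks, and 37 of 42 exceeded that median. Their median local background was 4.54 fragments against 0.962, and 27 of 42 (64.3%) lay among the 10% of all peaks with the highest background, above 2.96 fragments. Those 27 were 7 of 7 at LAMB3, 8 of 9 at PLEC, 7 of 8 at ITGB4, 3 of 4 at COL17A1, 1 of 5 at ITGA3 and 1 of 1 at CD151, and none at LAMA3, ITGA6 or DST. The median fold of the member peaks was 4.02, lower than the 5.13 of all peaks, and 15 of 42 exceeded the latter. With these densest 10% of all peaks left out, 12 of the 36 summits inside remained, with 1 each in PLEC and ITGB4 and none in LAMB3 or CD151. A summit inside remained for 7 of 9 genes, against 36.2% of all protein-coding records with the same peaks left out. A summit at an end remained for 3 of 9 genes, ITGA3, ITGA6 and DST, against 37.6% of those records. The part of fragment density in the counts was otherwise not tested.

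**Figure D3:**
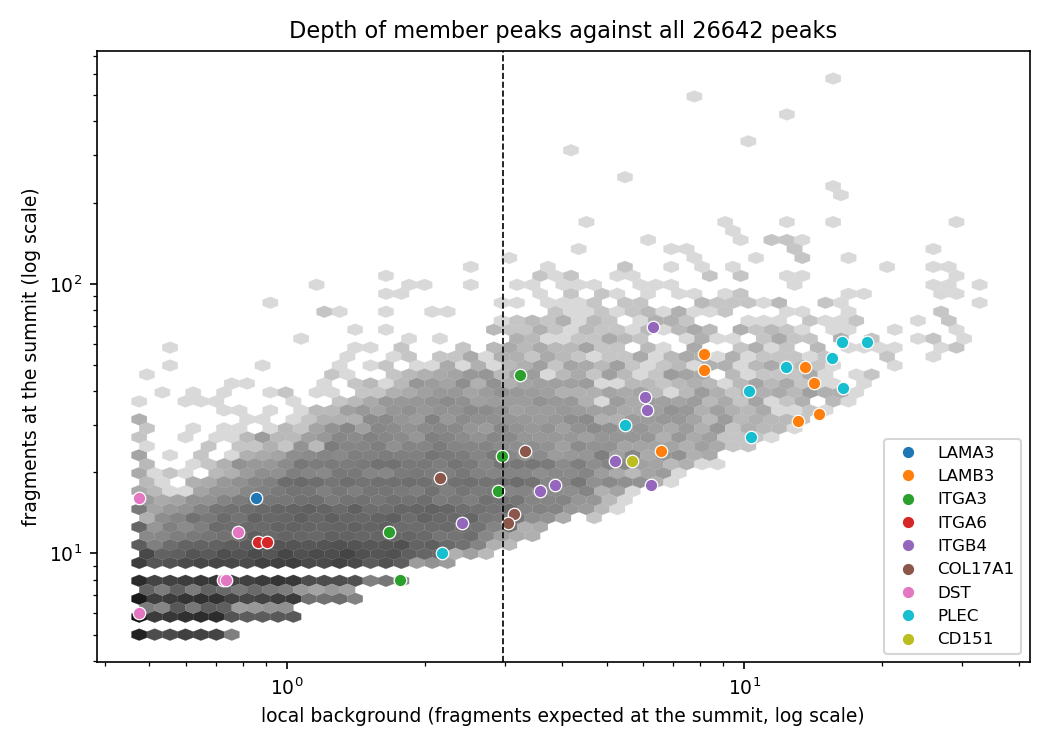
Fragments at the summit against the local background, both on log scales, for all peaks (grey hexagons, darker where more peaks fall) and the 42 peaks in or at the 9 genes (coloured points); the dashed line marks 2.96 fragments, above which the densest 10% of all peaks lie. All LAMB3 peaks and most PLEC and ITGB4 peaks lie to its right with many fragments, and LAMA3, ITGA6 and DST peaks lie to its left.

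Whether the background was high across each region was examined after these values had been seen. At LAMB3 the median background of the gene's own peaks was 13.1 fragments, and that of the 20 peaks lying 50 kb to 1 Mb away was 0.989, a 13.3-fold difference. At PLEC it was 12.3 against 2.22 (83 peaks), 5.56-fold, and at ITGB4 5.65 against 1.66 (90 peaks), 3.41-fold. COL17A1 had 3.09 against 0.869 (39 peaks), ITGA3 2.90 against 1.27 (57 peaks) and CD151 5.70 against 2.61 (82 peaks). LAMA3, ITGA6 and DST stood at 0.854, 0.883 and 0.726 against 0.475, 0.594 and 0.475, with only 5 flanking peaks each at LAMA3 and DST. The gene's own median was above that of the flanks in 9 of 9 genes. At LAMA3 and DST it could not have been below, since their flank median of 0.475 is the lowest background the caller used. LAMA3 and CD151 rest on 1 peak each. The flanks of PLEC and CD151 themselves stood at 2.22 and 2.61, against chromosome medians of 0.689 and 1.26. The nearest 50 kb were left out of these flanks, and some peaks there also had a high background. At LAMB3 it was 6.17, 12.7 and 12.7 within 7401 bp of the low-coordinate end, and 7.52 and 6.87 within 4852 bp of the other. Farther out at LAMB3 it was 1.05, 1.39 and 1.03. At PLEC the peaks in that stretch ranged from 2.21 to 7.99. How far the high background extends was not tested. The caller's control is not given, so this background may hold signal of the peaks themselves, which was also not tested.

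**Figure D4:**
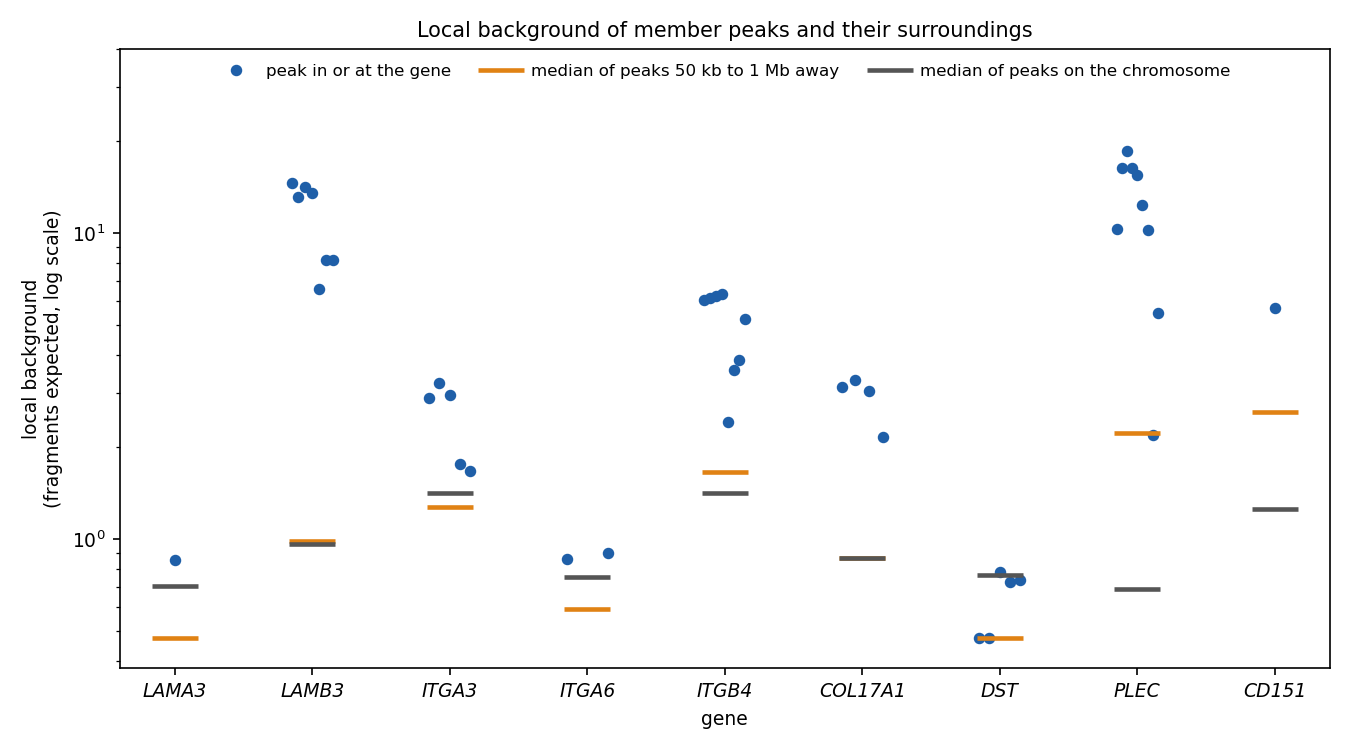
Local background (fragments expected at the summit, log scale) of each peak in or at the 9 genes (blue points), with the median of peaks 50 kb to 1 Mb away (orange bar) and of all peaks on the same chromosome (grey bar, over the orange one at COL17A1). Every LAMB3 point, from 6.59 to 14.6, lies far above both bars, while the DST points lie at or near them.

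Around the records, 41 more summits lay in the neighbourhoods, and 12 of them were within 1 kb of the end of another protein-coding gene, 11 genes in all. Of all 26642 peaks, 8579 had a summit within 1 kb of a protein-coding end, so 12 of 41 is not above the general share. ITGB4 had the most of the 41, with 10, among them the peak at UNK, 27.2 kb away, with a fold of 12.0 on 37 fragments, and one at the histone gene H3-3B with 6.43 on 30. ITGA6 had 5, including the peak at PDK1, a kinase that restrains pyruvate dehydrogenase, with 8.88 on 21 fragments at 49.4 kb. ITGA3 had 7, including one at the related kinase gene PDK2 with 6.59 on 19. LAMB3 had 8, with CAMK1G at 1.58 kb (3.57 on 48 fragments) and G0S2 (4.44 on 8). CD151 had 2, at PIDD1 with 7.12 on 23 and PNPLA2 with 3.58 on 17. COL17A1 had 2, one of them at SFR1 with 3.92 on 11. The other lay inside SFR1, 1827 bp from its nearer end, and is named here because its fold was the highest of the 41, on 45 fragments. PLEC had 7, none at another gene's end. The other named neighbours were SAP30BP with 6.01 and GALK1 with 5.39, both beside ITGB4. LAMA3 and DST had none in the neighbourhood.

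Other genes of cell-matrix adhesion gave a count at their ends close to the background. A summit at an end was found for 21 of 51 (41.2%), against 41.5% of all protein-coding records. The groups ranged from 1 of 6 tetraspanins to 9 of 10 genes of actin-linked focal adhesions, the contacts through which other integrins reach actin. In that last group VCL (vinculin) had a fold of 13.8 on 56 fragments, TLN1 (talin, which activates integrins) 10.9 on 41 and LIMS1 8.50 on 14, and PARVA alone had none at an end, with 2 summits inside. Of the 5 plakins, the family of PLEC and DST, 3 had one: DSP with 9.23 and EVPL with 9.12, both on 25 fragments, and PPL with 4.30 on 11. EPPK1 and MACF1 had none at an end and 1 and 9 inside.

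The receptors and matrix genes related to the 9 ranged from 1 of 6 to 3 of 10. Among 10 other integrin subunits, 3 had a summit at an end: ITGB1, the common beta partner, with 8.23 on 12 fragments, ITGAV with 8.01 on 14 and ITGB8 with 5.37 on 13. ITGA1 and ITGA2 had none. Among 6 tetraspanins only CD82 had one, with 12.6 on 42 fragments, while CD63 and CD81 had none. Among 10 other laminin chains 3 had one, including LAMA1 with 6.30 on 12 and LAMC1 with 5.31 on 9. LAMA2 and LAMA4 had none at an end. Among 10 basement membrane genes, HSPG2 (perlecan) had 4.22 on 10 and COL7A1, the anchoring fibril collagen, 4.07 on 22, while COL4A1 and COL4A2 had none at an end. Inside their records the 51 genes held a median of 1 summit, against 4 for the 9 genes, and 14 of the 51 had no summit inside or at an end, against 45.1% of all protein-coding records.

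**Figure D5:**
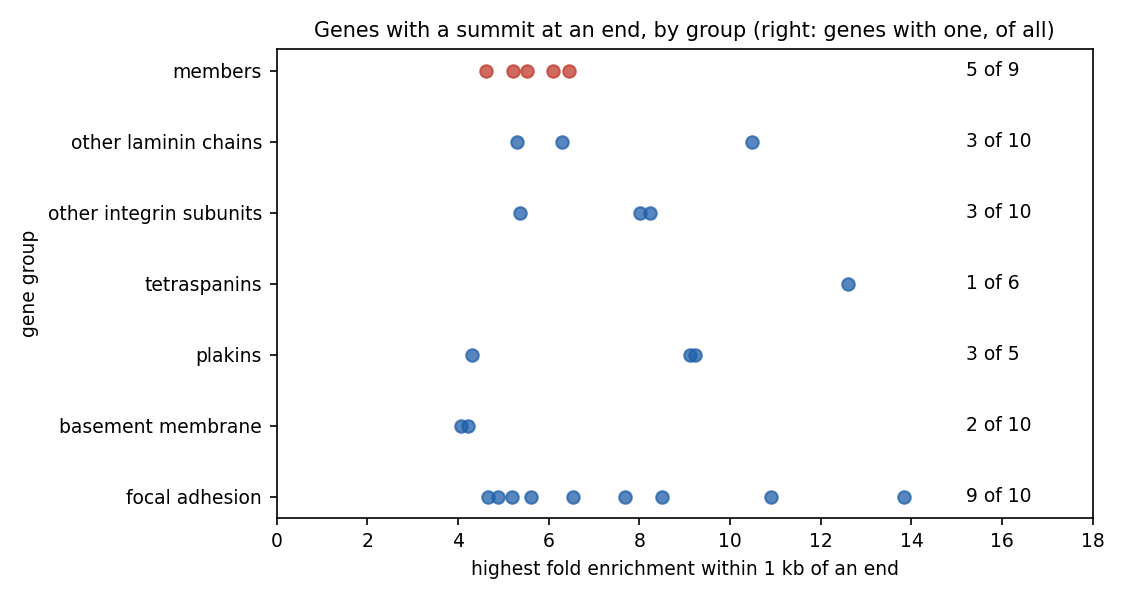
Highest fold enrichment within 1 kb of a gene end (horizontal axis) for each gene that had such a summit, by group (vertical axis), with the 9 genes in red and the number of genes with a summit at the right. The 5 genes of the 9 with one lie between 4.62 and 6.44, and the focal adhesion group, with 9 of 10, reaches 13.8.

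The strength of the calls can be read from the authors' q. A −log10 q of at least 5 was reached by 23 of the 42 member peaks (54.8%), against 41.2% of all peaks, and of at least 10 by 11 (26.2%), against 16.4%. At 5 or more, 4 of 9 genes kept a summit at an end, against 27.4% of all records. DST lost its end summits and CD151 its only one. At 10 or more, LAMB3 and ITGB4 kept an end summit (2 of 9, against 14.2%), and 5 of 9 genes kept one inside, LAMA3, ITGA3, ITGB4, DST and PLEC, against 8.22%.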

How the data were processed

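The deposited peak list of the 1 library made with a TCF4 antibody was used. Per the submitters' processing notes, which give no settings, the tools were Bowtie2 2.3.5.1, SAMtools and MACS2 2.2.7.1 and the build hg38. Whether the IgG library served the caller as control, and the total depth, are not given in the sources used here. Per the layout of the deposited list, each peak has a fold enrichment (a ratio over local background), −log10 p-value and −log10 q-value, and a deposited score equal to the whole part of 10 times that −log10 q.

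The fold was read as fragments + 1 over background + 1 and the p as a Poisson tail, and both were solved for fragments and background. For all 26642 peaks the −log10 p was met within 0.0001. In simulation, 486 of 486 simulated peaks and 200 of 200 genes with planted summits were recovered. The simulated peaks were made with the same formulas, so their recovery checks the solving and cannot show that the caller used these formulas. Genes came from a RefSeq table (GRCh38) of 19862 protein-coding records on main chromosomes. It has no strand or exons, so exonic and intronic positions were not assigned, and starts came from the promoter table. No test was run, since each antibody has 1 library, and lists are given by counts beside all records. All 9 genes were named with every summit in or at them, neighbours with an end within 1 kb of a summit, and, per group of related genes, up to 3 with the highest fold at an end and up to 2 without a summit there, except 1 gene that is not reported here. The members, lists and motif words were chosen with earlier results of these data known. Alternatives were stricter peaks, other windows, peak overlap, annotated starts, and leaving out dense peaks or PLEC. Computing used SciPy 1.17.1 and NumPy 2.4.6 with pandas 2.3.3 in Python 3.11.15, and Matplotlib 3.10.9 drew the figures.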

Additional observations from a re-analysis of the deposited data

How the results depend on the processing

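Across 43 alternative settings, 28 left the value within 1.5 times, or within its interval, and 15 moved it. The 5 of 9 genes with a summit at an end became 2 at a −log10 q of at least 10 (14.2% of all records), 2 with at least 20 fragments (11.1%), 3 without the densest 10% of peaks (37.6%), and 1 of 5 genes at the annotated finish (4.8% of genes with a start in the promoter table), with 4 of 5 at an annotated start (44.5%). The 9 genes with a summit inside became 5 at a −log10 q of at least 10 (8.22% of all records). The 36 summits inside became 19 at a −log10 q of at least 5, 8 at 10, 20 with at least 20 fragments and 12 without the densest 10%. Their density of 3.36 per 100 kb became 1.77 at a −log10 q of at least 5 and 1.87 with at least 20 fragments, 2 settings that remove peaks by construction. The density over all records was not computed at these 2 settings, so 1.77 and 1.87 cannot be set beside the value over all records. The median fold of 4.02 (interval 3.57 to 5.18) was 5.21 for summits at an end and 5.21 without the densest 10%. The 21 related genes with a summit at an end became 7 of 51 at a −log10 q of at least 10 (14.2%), and the 1 promoter with a TEAD word became 0 with 150 bases before the start. Windows of 500 bp and 2 kb gave 5 and 6 genes, and leaving out PLEC gave 27 summits. The share over all records was not computed for these 2 windows, so the 5 and 6 genes cannot be set beside it. No paired analysis was possible because each antibody has 1 library and no test was run. Few fragments limit single peaks at LAMA3, ITGA6 and DST.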
